A study of Mus musculus with 11 samples.

Results

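The 10 genes described here encode the transcription factors most often used to define pancreatic beta cell identity: *Pdx1*, *Mafa*, *Nkx6-1*, *Nkx2-2*, *Neurod1*, *Isl1*, *Pax6*, *Foxa2*, *Rfx6* and *Insm1*. They were taken by symbol from bulk RNA-seq count tables of mouse islets that list 55536 genes, and all 10 were found and passed the filter on low counts in every comparison. The 11 libraries came from islets of wild-type C57BL/6J female mice that entered the study at 9 weeks of age. Multipara mice completed 3 consecutive pregnancies, had their pups removed to limit the effects of lactation and were studied 3 weeks after the last delivery, and virgin mice of the same age served as the control. S-961, a peptide antagonist of the insulin receptor, was injected for several days to raise the demand for insulin. Each library held between 22028507 and 32234146 counts in total. There were 3 libraries of the virgin S-961 group, 4 of the multipara S-961 group, 2 of the virgin untreated group and 2 of the multipara untreated group. The study counts its S-961 groups in mice, in the same numbers as these libraries, and for the untreated libraries the sources used here do not say whether each came from a separate animal, so that their spread may be in part technical.

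These factors act together as a network in which several bind the regulatory DNA of each other and of the genes for insulin and its secretion. Pdx1, Foxa2, Nkx2-2, Neurod1, Insm1, Isl1, Pax6 and Rfx6 work from the islet progenitor onward, several of them in more than one islet cell type. Nkx6-1 becomes restricted to beta cells, and Mafa marks the mature, glucose-responsive beta cell. In whole islets, fewer beta cells and less RNA of a gene per beta cell cannot be told apart.

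The upstream sequences of 4 genes are shown because they contrast the patterns of the results: *Neurod1* and *Nkx6-1* rose with S-961 in both parity groups, *Pdx1* was not called in either, and *Ins1*, a joint target of these factors, fell. Each is the 250 bases before the RefSeq transcription start in GRCm38.p6, written 5′ to 3′ on the strand of the gene, with capitals for matches on either strand to 4 short motifs: CATCTG (an E-box of the kind bound by Neurod1), TAAT (the homeodomain core of Pdx1, Nkx6-1, Isl1 and Pax6), TGCTGA (a Maf half-site) and TNTTTAC (forkhead, for Foxa2). Overlapping or adjoining matches run together. The windows are chr2:79456637-79456886 on the minus strand for *Neurod1*, chr5:101664712-101664961 on the minus strand for *Nkx6-1*, chr5:147269847-147270096 on the plus strand for *Pdx1* and chr19:52264047-52264296 on the plus strand for *Ins1*.
Neurod1: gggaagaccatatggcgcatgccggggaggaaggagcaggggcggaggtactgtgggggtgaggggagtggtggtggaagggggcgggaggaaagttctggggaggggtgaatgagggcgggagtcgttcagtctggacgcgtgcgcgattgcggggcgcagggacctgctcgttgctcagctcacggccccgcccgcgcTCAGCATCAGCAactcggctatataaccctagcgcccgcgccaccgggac
Nkx6-1: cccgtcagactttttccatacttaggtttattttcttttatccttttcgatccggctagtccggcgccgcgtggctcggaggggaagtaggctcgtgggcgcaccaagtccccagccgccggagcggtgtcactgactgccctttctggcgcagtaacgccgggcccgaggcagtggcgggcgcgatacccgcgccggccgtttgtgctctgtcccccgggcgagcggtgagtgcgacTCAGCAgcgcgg
Pdx1: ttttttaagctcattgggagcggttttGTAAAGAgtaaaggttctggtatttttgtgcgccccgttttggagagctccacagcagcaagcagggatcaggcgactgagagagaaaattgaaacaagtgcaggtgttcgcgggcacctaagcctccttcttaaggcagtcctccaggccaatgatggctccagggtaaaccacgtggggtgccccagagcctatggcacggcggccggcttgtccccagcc
Ins1: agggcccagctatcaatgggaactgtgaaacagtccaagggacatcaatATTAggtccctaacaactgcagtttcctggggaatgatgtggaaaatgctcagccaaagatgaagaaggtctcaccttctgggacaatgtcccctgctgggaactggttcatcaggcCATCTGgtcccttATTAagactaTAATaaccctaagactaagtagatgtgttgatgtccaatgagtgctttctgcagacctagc

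The *Neurod1* window held 2 Maf half-site matches, side by side near the RefSeq start of transcription, and the *Nkx6-1* window held 1. Among the 3 windows of *Foxa2*, which was not called, 1 also held a match. Of all 32851 mouse promoter windows of the same length, 16.1% held at least 1 such match. The *Pdx1* window held 1 forkhead match, which 10.9% of all windows held. The *Ins1* window held 1 E-box match, against 14.4% of all windows, and 3 homeodomain cores, a motif present in 54.9%. RefSeq windows were matched for 8 of the 10 members, 11 windows in all, and not for *Mafa* and *Insm1*. By the gene coordinates given below, which are not from RefSeq, the whole *Nkx6-1* window lies inside the annotated gene. So do the part of the *Neurod1* window with both Maf matches and the part of the *Pdx1* window nearest its RefSeq start. A match is only a description of these letters and was not tied to binding.

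Several libraries stood apart from others of their label. The library multipara S-961 4 differed from virgin S-961 1 and 2 by a mean of 0.105 and 0.101 on the log2 CPM scale over 7527 genes, which is about as little as these virgin libraries differed from each other (0.102), and by 0.193 to 0.356 from the other multipara S-961 libraries. Among the S-961 libraries, multipara S-961 3 was the one from which every other differed most (0.311 to 0.472). For virgin S-961 3 the nearest was multipara S-961 2 (0.217), ahead of its own group (0.239 and 0.243). Multipara S-961 1 was closer to virgin S-961 1 and 2 (0.199 and 0.196) than to multipara S-961 2 and 3 (0.254 and 0.311). It differed by 0.193 from multipara S-961 4. By this measure the S-961 libraries did not separate by parity label. The proliferation gene *Mki67* was at 3.93 CPM in multipara S-961 4, and at 93.9, 65.5 and 43.5 CPM in multipara S-961 1, 2 and 3. The virgin S-961 libraries held 3.43, 13.9 and 3.04 CPM of it. The 10 proliferation genes summed to 152 to 338 CPM in the libraries labelled multipara S-961 1 to 3 and to 12.5 to 32.3 CPM in the other S-961 libraries. The study reports cell cycle genes, among them *Cdk1*, *Cdc20* and *Cenpf*, as lower in S-961-treated multipara islets, and fewer proliferating beta cells there. As labelled here, the proliferation genes had the opposite sign. The libraries were kept under their labels. Whether any S-961 labels were exchanged between the parities was not tested, and an exchange would change the size or the sign of each difference between the parities with S-961 given here, and the S-961 folds within each parity. Multipara untreated 1 also stood apart in proliferation genes, with a sum of 99.6 CPM against 7.69 to 18.6 CPM in the other untreated libraries, and *Mki67* at 38.6 CPM against 2.14 to 6.54 CPM. It held a summed level of 8 immune markers of 936 CPM, against 185 to 219 CPM in the other untreated libraries. The 16 acinar markers, of which 15 were called higher with S-961 in each parity, summed to 2032 to 14253 CPM in the S-961 libraries and to 101 to 203 CPM in the untreated libraries, so exocrine RNA and the treatment cannot be told apart in these data. Defining islet markers were high in every library, and the insulin genes *Ins1* and *Ins2* made up 35.3% to 41.4% of a library's counts in untreated islets but 13.2% to 20.7% after S-961.

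**Figure D1:**
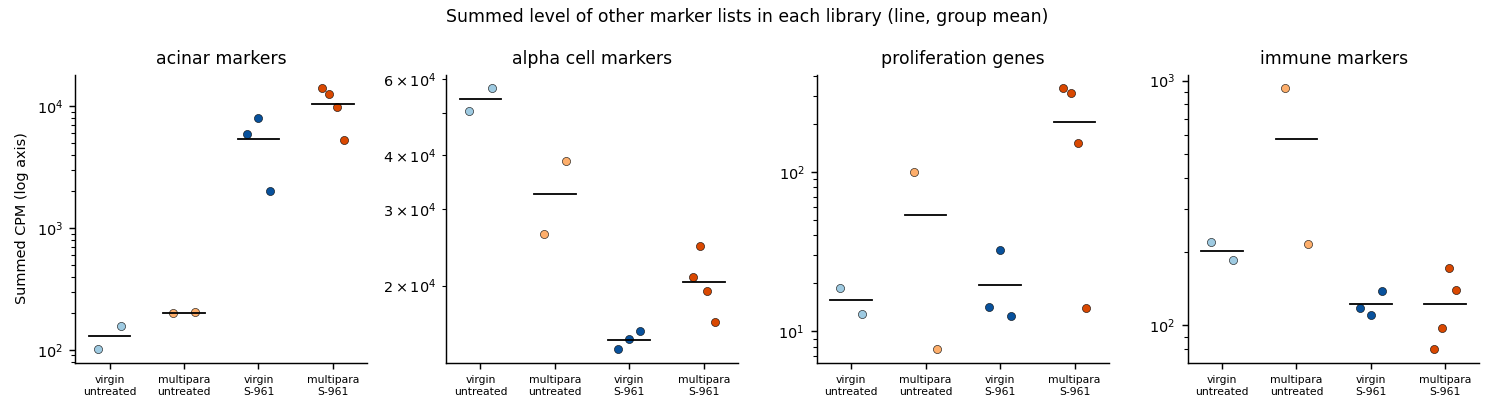
Summed CPM of 4 marker lists on log axes, 1 point per library, with a line at the group mean. Acinar markers were higher in all S-961 libraries than in any untreated library, and in the proliferation genes multipara S-961 4 lay at 14.1 CPM beside the virgin libraries.

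S-961 against no treatment gave the largest differences among the members. Levels are given as CPM, in which all 11 libraries were brought to one scale by TMM, a method that limits the effect of very abundant genes. *Mafa*, *Neurod1* and *Nkx6-1* were higher with S-961 in virgin and in multipara mice, and *Insm1* passed the threshold in multipara mice. In virgin mice 3 of the 10 members rose past the threshold of an adjusted p-value of 0.05 (edgeR quasi-likelihood test, adjusted over all genes tested) and 0 fell, while 36.5% of the 17996 genes tested were called, 18.8% higher and 17.6% lower. In multipara mice 4 rose and 0 fell, while 37.6% of all genes were called, 18.2% higher and 19.4% lower. The share of members called was therefore near that of all genes, and all of the called members rose. The median log2 fold change of the members was 0.16 in virgin and 0.46 in multipara mice, beside -0.036 and 0.031 over all genes tested.

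*Mafa* (chr15:75745490-75748228, minus strand, a gene without introns), a bZIP activator of the insulin genes, moved most of the members in virgin mice. Virgin untreated libraries held 213 and 183 CPM, and virgin S-961 libraries held 567, 716 and 796 CPM. In multipara mice it was at 219 and 269 CPM untreated and at 328, 444, 423 and 629 CPM with S-961. Every S-961 library was above every untreated library. The rise was 3.50-fold in virgin mice (log2 fold change 1.81, SE 0.27, adjusted p = 0.00074 by edgeR's quasi-likelihood test) and 1.87-fold in multipara mice (0.90, SE 0.25, adjusted p = 0.016). The difference between these rises was -0.90 on the log2 scale, with a 95% interval of -1.67 to -0.14 and an unadjusted p = 0.024 in the edgeR interaction test, but its adjusted p was 0.71.

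*Neurod1* (chr2:79452521-79456751, minus strand), a basic helix-loop-helix activator that binds the insulin E-box, had the smallest error of the called members. It was at 70.1 and 62.6 CPM in virgin untreated and at 196, 196 and 163 CPM in virgin S-961 libraries. In multipara mice it was at 64.1 and 85.7 CPM untreated and at 156, 155, 183 and 180.1 CPM with S-961. The lowest S-961 library was well above the highest untreated one. The fold was 2.78 in virgin mice (log2 1.48, SE 0.17, adjusted p = 0.00022 by edgeR) and 2.25 in multipara mice (1.17, SE 0.16, adjusted p = 0.00044). The gene overlaps *Cerkl* on the same strand, and 8 of its 11 deposited values were not whole, which occurs where RSEM splits reads between genes.

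*Nkx6-1* (chr5:101658139-101664996, minus strand), a homeodomain repressor of non-beta programmes, rose less. It was at 191 and 144 CPM in virgin untreated and at 286, 312 and 292 CPM in virgin S-961 libraries. In multipara mice it was at 164 and 203 CPM untreated and at 265, 253, 363 and 290.2 CPM with S-961. The groups did not overlap in either parity. The fold was 1.77 in virgin mice (log2 0.82, SE 0.19, adjusted p = 0.0072 by edgeR) and 1.59 in multipara mice (0.67, SE 0.18, adjusted p = 0.015).

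*Insm1* (chr2:146221921-146225020, plus strand, a gene without introns), a zinc-finger factor of endocrine differentiation, was at 110.1 and 104 CPM in virgin untreated and at 133, 141 and 136 CPM in virgin S-961 libraries. In multipara mice it was at 91.3 and 129.9 CPM untreated and at 187, 164, 202 and 133 CPM with S-961. The S-961 libraries were above the untreated ones in both parities, although multipara S-961 4 exceeded multipara untreated 2 only narrowly. The change was called in multipara mice (1.55-fold, log2 0.63, SE 0.19, adjusted p = 0.021 by edgeR) and was 0.35 in virgin mice (SE 0.19, adjusted p = 0.18). The 2 changes differed by 0.29 with a 95% interval of -0.29 to 0.87, so a difference between the parities was not shown.

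The other members were not called. *Pdx1*, *Nkx2-2* and *Pax6*, like *Neurod1*, overlap annotated non-coding transcripts on the opposite strand, and whether the counting used strand is not given in the sources used here. *Pdx1* (chr5:147269959-147275848, plus strand), the homeodomain factor required for the pancreas to form, was at 130.3 and 107 CPM in virgin untreated, 101, 111 and 93.0 CPM in virgin S-961, 126 and 158 CPM in multipara untreated, and 113, 94.0, 122 and 98.7 CPM in multipara S-961 libraries. All S-961 libraries of multipara mice were below both untreated ones, and the log2 fold change was -0.41 (SE 0.15, adjusted p = 0.053 by edgeR), against -0.22 (SE 0.16, adjusted p = 0.31) in virgin mice. *Isl1*, a LIM-homeodomain factor, had log2 fold changes of 0.33 in virgin and 0.38 in multipara mice, with adjusted p-values of 0.21 and 0.14. *Rfx6*, a winged-helix factor of islet development, was the member with the widest error, at -0.28 (SE 0.32) in virgin and 0.54 (SE 0.31) in multipara mice, and the latter was 0.19 without multipara S-961 3.

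The paired-box factor *Pax6*, the homeodomain factor *Nkx2-2* and the forkhead pioneer factor *Foxa2* moved least. Their log2 fold changes with S-961 lay between -0.12 and 0.084 over both parities. The 95% intervals were -0.39 to 0.38 in virgin and -0.39 to 0.34 in multipara mice for *Pax6*, and those of *Nkx2-2* and *Foxa2* lay within -0.46 to 0.37. Over all 11 libraries the range of log2 CPM was 2.12 for *Mafa*, 1.65 for *Rfx6*, 1.64 for *Neurod1* and 1.33 for *Nkx6-1*, and it was 0.53 for *Pax6*, 0.50 for *Foxa2* and 0.44 for *Nkx2-2*.

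**Figure D2:**
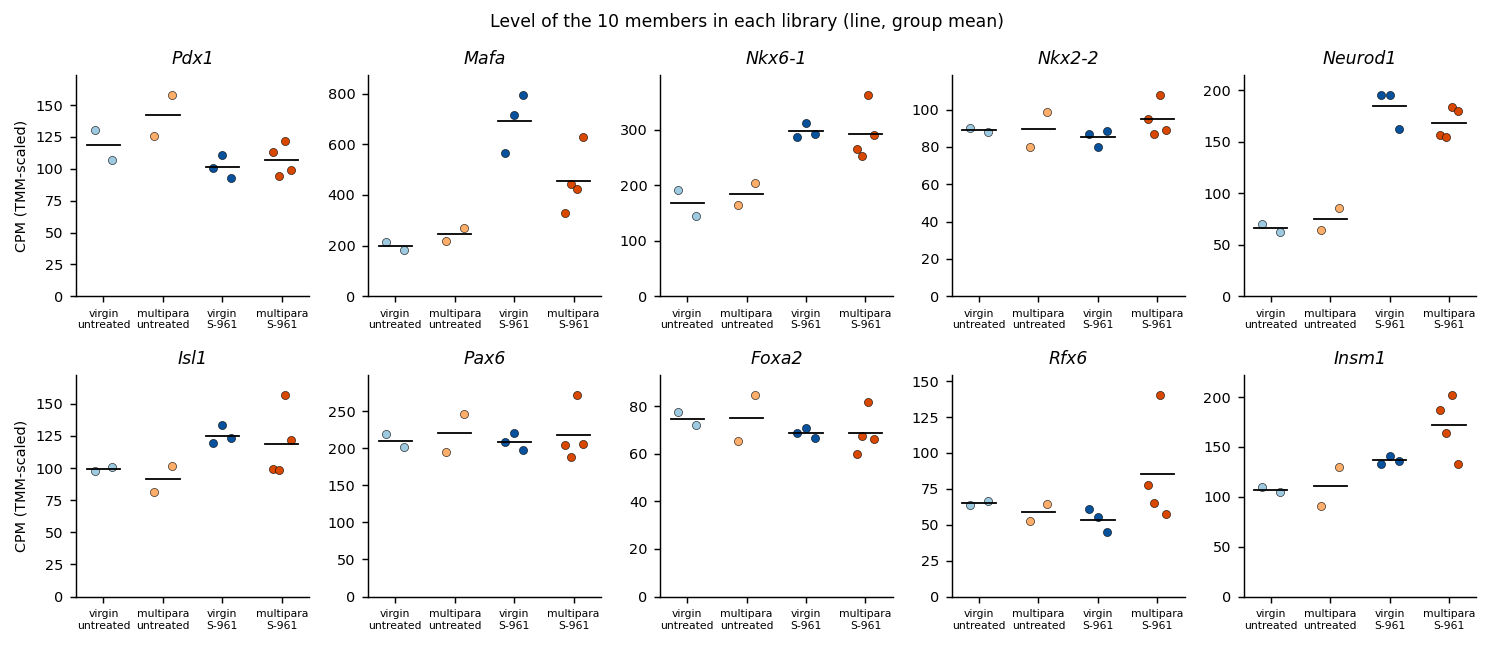
TMM-scaled CPM of each member (linear axes from 0), 1 point per library and a line at the group mean. For *Mafa*, *Neurod1* and *Nkx6-1* all S-961 libraries lie above all untreated libraries of the same parity, while *Pax6*, *Nkx2-2* and *Foxa2* overlap or nearly overlap across the groups.

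By the plain overlap of libraries, 5 members were above and 2 below without overlap in virgin mice, where 68.3% of all genes did not overlap, 32.8% above and 35.5% below. In multipara mice 4 were above and 1 below, against 49.0% of all genes, 24.5% in each direction. In virgin mice the 2 below were *Foxa2* and *Rfx6*, with small differences. These shares too were close to those of all genes.

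The values in multipara mice leaned in part on the library multipara untreated 1. With another library left out the log2 fold change of *Mafa* was as low as 0.71, and 4 of the 15 alternatives lost the call of *Insm1*. Without multipara untreated 1 a single untreated multipara library remained. The log2 fold changes were then smaller, at 0.98 for *Neurod1*, 0.76 for *Mafa*, 0.53 for *Nkx6-1* and 0.40 for *Insm1*. The calls of *Mafa*, *Nkx6-1* and *Insm1* were lost in that fit. The share of all genes called in it is not given here, so whether this was particular to the members cannot be told. With the mean log2 CPM of the acinar markers as a covariate 0 members and 3 of all genes were called in virgin mice, and 0 members and 0 genes in multipara mice. Their part in the result cannot be told apart from that of S-961. With total counts in place of TMM the calls were 5 and 9 members, all higher, and the split of all genes moved from 3390 higher and 3172 lower to 6409 and 1272 in virgin mice and from 3272 and 3496 to 7787 and 1304 in multipara mice, with the median of all genes at 0.43 and 0.61.

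**Figure D3:**
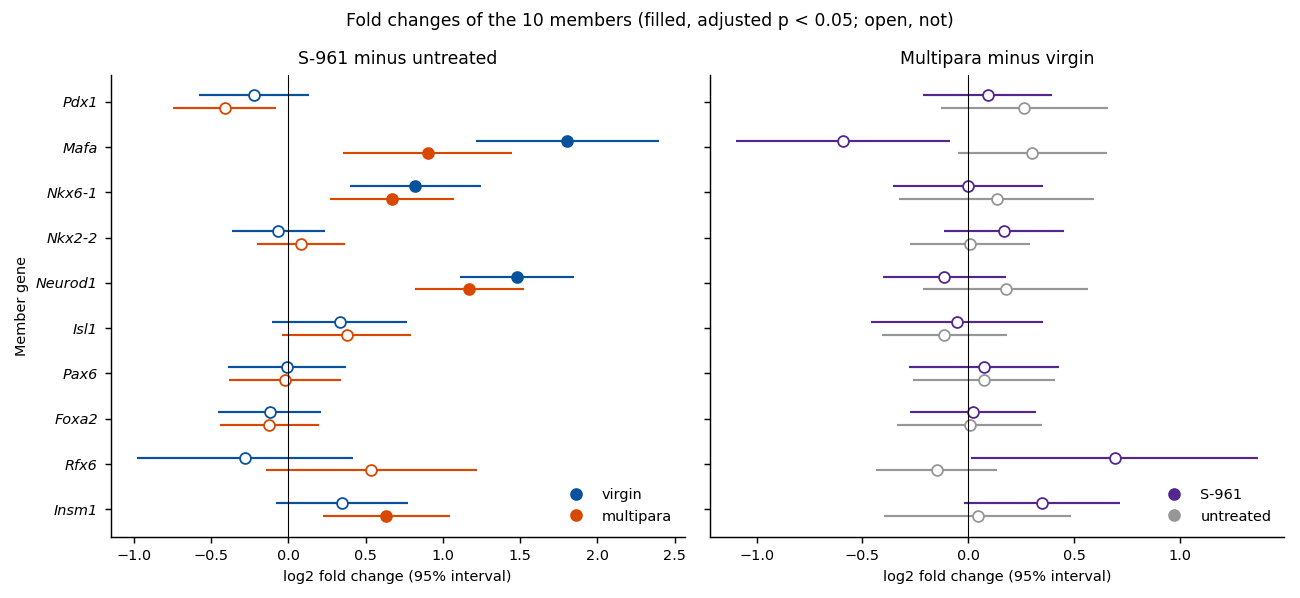
Log2 fold changes of the 10 members with 95% intervals, for S-961 against untreated (left) and multipara against virgin (right), filled where the adjusted p-value was under 0.05. The filled points are *Mafa*, *Neurod1* and *Nkx6-1* in both parities and *Insm1* in multipara mice, and no point in the right panel is filled.

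Ratios of 2 genes in the same library do not depend on the scaling between libraries, and they are given as a description. Counts of *Mafa* per count of *Pdx1* were 1.64 and 1.72 in virgin untreated and 1.74 and 1.70 in multipara untreated libraries. With S-961 they were 5.63, 6.46 and 8.56 in virgin and 2.90, 4.72, 3.48 and 6.37 in multipara libraries. All 4 untreated libraries thus held nearly the same ratio, and the S-961 libraries spread widely above it. *Neurod1* per *Pdx1* was 0.510 to 0.587 in the untreated and 1.39 to 1.94 in the S-961 libraries. *Nkx6-1* per *Pdx1* was 1.29 to 1.47 untreated and 2.35 to 3.14 with S-961. *Foxa2* per *Pdx1* was 0.518 to 0.675 untreated and 0.531 to 0.719 with S-961, so this pair overlapped. *Pax6* per *Pdx1*, however, did not overlap within a parity. It went from 1.68 to 1.89 up to 1.99 to 2.12 in virgin mice, and from 1.55 to 1.56 up to 1.81 to 2.24 in multipara mice. *Nkx2-2* per *Pdx1* overlapped in virgin mice but not in multipara mice. A ratio also carries the change of its denominator, and *Pdx1* tended lower with S-961. Per 1000 counts of *Ins2*, *Mafa* had 0.560 to 0.722 counts untreated and 3.86 to 7.36 counts with S-961, a ratio that also carries the fall of *Ins2*.

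**Figure D4:**
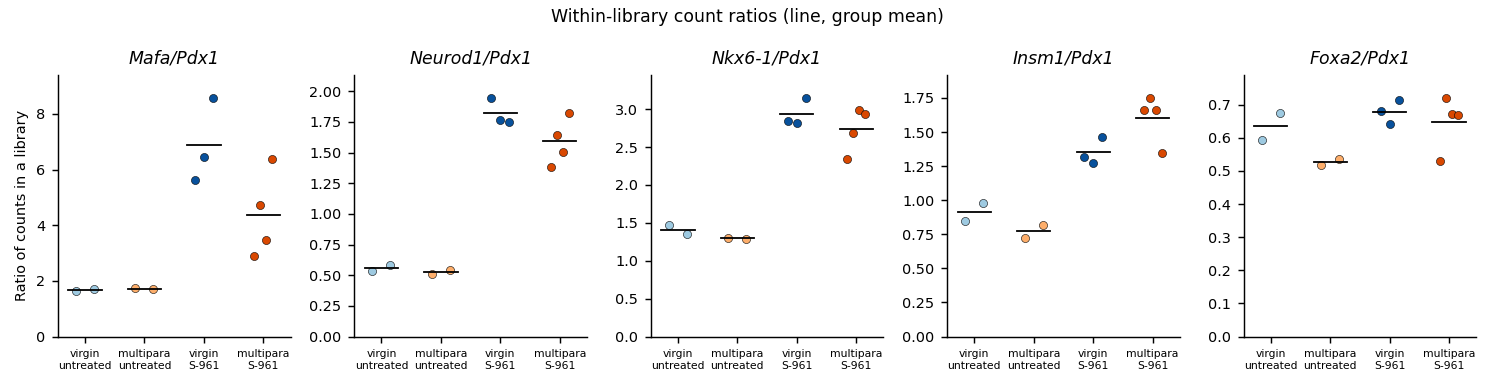
Ratio of counts of 2 genes within each library (linear axes from 0), 1 point per library and a line at the group mean. The ratios of *Mafa*, *Neurod1*, *Nkx6-1* and *Insm1* to *Pdx1* separate the untreated from the S-961 libraries, and that of *Foxa2* to *Pdx1* overlaps between them.

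Multipara against virgin with S-961 asked whether the levels of these factors under S-961 differ after repeated pregnancy. None of the 10 members was called, and of all 16784 genes tested 0.0% were called by edgeR's quasi-likelihood test, with 1630 genes (9.71%) at an unadjusted p-value under 0.05. The DESeq2 Wald test called 0 members and 358 genes higher and 11 lower. At that unadjusted level were 2 of the 10 members, *Mafa* lower and *Rfx6* higher in multipara mice. *Mafa* was at 567 to 796 CPM in virgin and 328 to 629 CPM in multipara libraries, so the groups overlapped through multipara S-961 4, and 8.87% of all genes did not overlap between these groups, 0 of them members. The difference was -0.59 (SE 0.22, unadjusted p = 0.026, adjusted p = 0.43 by edgeR), with a 95% interval of -1.10 to -0.088. Without multipara S-961 4 it was -0.78 with an adjusted p of 0.08, the same library in which *Mki67* was low.

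*Rfx6* was at 60.7, 55.3 and 44.7 CPM in virgin and 77.4, 64.8, 140.4 and 57.8 CPM in multipara S-961 libraries. Multipara S-961 3 was far above the rest and multipara S-961 4 lay within the virgin range. The difference was 0.69 (SE 0.30, unadjusted p = 0.047, adjusted p = 0.51 by edgeR), and it was 0.33 without multipara S-961 3. *Insm1* differed by 0.35 (SE 0.16, adjusted p = 0.54). The other 7 members had differences between -0.11 and 0.17. The intervals of *Pdx1* (-0.21 to 0.40), *Neurod1* (-0.40 to 0.18) and *Nkx6-1* (-0.36 to 0.35) bound how large a difference these libraries could have hidden. The members' median was 0.048, beside 0.0035 over all genes.

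Without S-961, 0 of the 10 members were called between the 2 multipara and 2 virgin libraries, 0.0% of 15812 genes were called, and 889 genes (5.62%) had an unadjusted p-value under 0.05, none of them a member. The DESeq2 Wald test called 0 members and 22 genes higher and 34 lower. *Mafa* had the largest difference, 0.30 (SE 0.13, unadjusted p = 0.076, adjusted p = 0.72 by edgeR), and was the 1 member whose groups did not overlap, where 36.0% of all genes did not. *Pdx1* followed with 0.26 (SE 0.15, adjusted p = 0.72). With 1 library left out *Mafa* ran from 0.16, without multipara untreated 2, to 0.42, without multipara untreated 1, and *Pdx1* from 0.10, without multipara untreated 2, to 0.41, without virgin untreated 1. The remaining members lay between -0.15 and 0.18. The test of the difference between both parity effects called 0 members and 0.0% of 17996 genes, with 1179 genes (6.55%) at an unadjusted p-value under 0.05, among them *Mafa* alone of the members. The DESeq2 Wald test of this difference called 0 members, and 59 genes higher and 20 lower.

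For levels between genes, CPM was divided by the length of the principal transcript in kb, since longer transcripts yield more reads. In the virgin S-961 group *Mafa* stood first at 253 ± 42.5 CPM per kb (SD, n = 3), followed by *Nkx6-1* at 94.5 ± 4.19, *Pax6* at 72.8 ± 4.06 and *Neurod1* at 67.7 ± 6.97. *Isl1*, *Pdx1* and *Insm1* followed at 49.8, 47.0 and 44.0 CPM per kb, then *Nkx2-2* at 40.2, *Foxa2* at 32.3 and *Rfx6* at 15.5. The libraries of *Pax6* and *Neurod1* overlapped, as did those of *Isl1* and *Pdx1* and of *Pdx1* and *Insm1*, and the other neighbours in this order did not. In the multipara S-961 group *Mafa* was first at 167 ± 46.0 CPM per kb (SD, n = 4) and *Rfx6* last at 24.6 ± 10.9, and the libraries of all neighbours overlapped except *Mafa* with *Nkx6-1* and *Nkx2-2* with *Foxa2*.

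Without treatment the order was different. In virgin mice *Pax6* at 73.2 ± 4.26 CPM per kb (SD, n = 2) and *Mafa* at 72.3 ± 7.85 overlapped at the top, and *Pdx1* at 54.9 and *Nkx6-1* at 53.5 overlapped behind them. *Neurod1* came just above *Rfx6* at 24.3 ± 1.96 CPM per kb (SD, n = 2), while with S-961 it came directly after *Pax6*. In multipara mice *Mafa* at 89.1 ± 12.9, *Pax6* at 77.0 ± 12.7, *Pdx1* at 65.8 ± 10.6 and *Nkx6-1* at 58.6 ± 8.78 each overlapped with the next. *Rfx6* was last in all 4 groups.

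**Figure D5:**
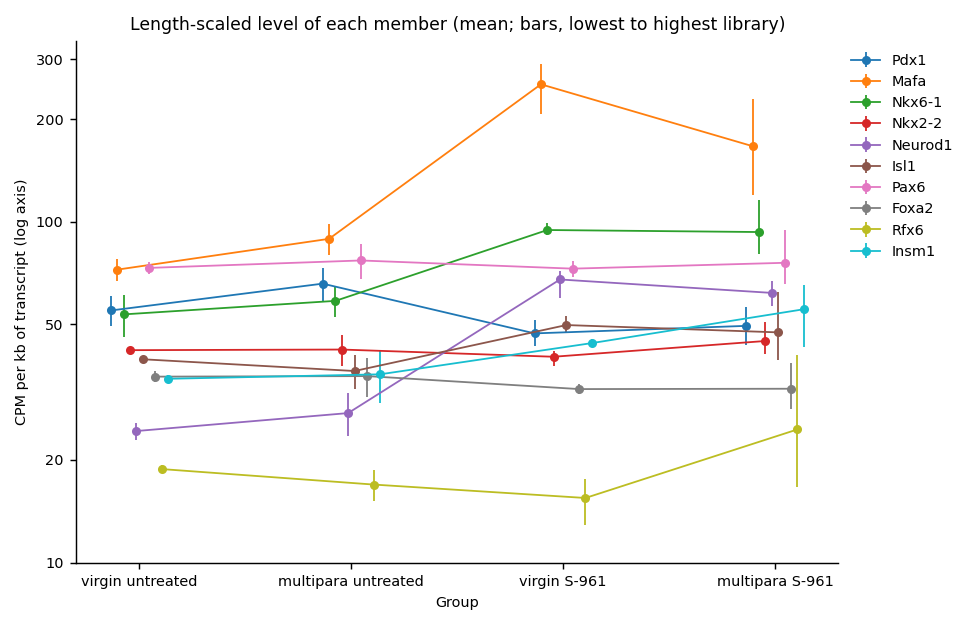
Mean CPM per kb of transcript of each member by group on a log axis, with bars from the lowest to the highest library. *Mafa* reaches 253 CPM per kb in the virgin S-961 group, *Neurod1* climbs from 24.3 to 67.7 CPM per kb between the virgin groups, and *Rfx6* has the lowest mean in every group.

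Among 26 other islet regulators, 24 were tested. In virgin mice 3 rose and 6 fell with S-961, and in multipara mice 7 rose and 0 fell, beside 36.5% and 37.6% of all genes. *Prox1* (0.90 in virgin and 1.12 in multipara mice) and *St18* (0.64 and 1.24) rose in both, with adjusted p-values of 0.0014 to 0.036. *St18* and *Myt1* are related zinc-finger factors. In virgin mice *Neurog3*, the inducer of endocrine progenitors, fell by 1.74, *Irx1*, an alpha cell factor, fell by 1.12 and *Hhex*, a delta cell factor, fell by 1.01.

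Genes of beta cell output moved in both directions. Of 20 beta cell output genes, 3 rose and 8 fell with S-961 in virgin mice, and 4 rose and 9 fell in multipara mice. The shares called were 55% and 65%, beside 36.5% and 37.6% of all genes. Of all genes 18.8% and 18.2% were called higher and 17.6% and 19.4% lower. *G6pc2*, the islet glucose-6-phosphatase subunit, rose by 1.80 and 1.55 on the log2 scale, and *Pcsk1*, the proinsulin convertase, rose by 1.38 and 1.53, with adjusted p-values of 0.0046 or less. *Ins1* fell by 1.42 in virgin and 1.82 in multipara mice, *Ins2* fell by 1.55 and 1.99, and the cation channel gene *Trpm5* fell by 1.46 and 2.08, all with adjusted p-values of 0.0022 or less. The hormone genes of other islet cells also changed, *Gcg* by -1.87 and -0.68 (adjusted p = 0.00021 and 0.019), *Ppy* by -2.17 and -1.67, and *Sst* by -1.39 in virgin mice, while the change of *Sst* in multipara mice was -0.49 (adjusted p = 0.12). The insulin genes thus fell in the same libraries in which *Mafa* and *Neurod1* rose.

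Between the parities 0 genes of either list were called. With S-961, 21 of the 24 other regulators tested had a positive difference and their median was 0.30, while without it 17 of 24 were negative with a median of -0.19, beside 0.0035 and 0.017 over all genes. The alpha cell markers, 4 of which are also among these regulators, had differences of the same signs, 8 of 8 positive with S-961 (median 0.50) and 8 of 8 negative without (median -0.61), with summed levels of 14232 to 15712 CPM in virgin and 16482 to 24665 CPM in multipara S-961 libraries. With S-961 the differences were also positive for 16 of 16 acinar markers (median 1.02), 7 of 7 stromal markers (1.36), 5 of 5 duct markers (1.08), 5 of 5 delta and PP cell markers (0.49) and 10 of 10 proliferation genes (3.60, all 10 at an unadjusted p-value under 0.05), and for 3 of 8 endothelial (-0.030) and 3 of 8 immune markers (-0.023). Without S-961 they were positive for 14 of 15 acinar markers (0.88), 8 of 8 immune markers (1.07) and 9 of 9 proliferation genes (1.91), and for 1 of 5 delta and PP cell (-0.63), 2 of 7 stromal (-0.11), 1 of 4 duct (-0.28) and 2 of 8 endothelial markers (-0.066). The summed immune and proliferation levels were raised in multipara untreated 1 alone. Multipara untreated 2 held 216 and 7.69 CPM, against 185 to 219 and 12.8 to 18.6 CPM in virgin untreated libraries. The part of these lists in the differences of the regulators was not tested. For *Mki67* the difference between the parities as labelled was 2.95 with S-961 (SE 0.94, adjusted p = 0.36 by edgeR).

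The genes whose profile over the 11 libraries was most like that of a member were sought among 7517 genes with a mean log2 CPM of at least 4, by the mean absolute difference after centring each gene. For *Neurod1* these were *Bicd1*, *Mysm1*, *Ythdf3*, *Pank3* and *Lmbrd2*, at 0.066 to 0.085, against a median of 0.59 over all these genes. For *Mafa* they were *Apold1*, *Cbarp*, *Sec23a*, *Tbc1d4* and *Gramd1c*, at 0.18 to 0.20, against 0.64. For *Rfx6* they were *Myt1*, *Dab2ip*, *Met*, *Tox3* and *Anks6*, at 0.099 to 0.14, against 0.40. *Myt1* and *Tox3* are also among the other islet regulators, and like *Rfx6* both were highest in multipara S-961 3, at 88.0 and 45.1 CPM.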

How the data were processed

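Islet RNA was sequenced from 11 stranded, poly(A)-selected libraries. The authors deposited 1 table per library of expected counts (estimated counts of reads per gene, not normalized) for 55536 genes, made with STAR and RSEM according to the submitters' processing notes, with versions not given in the sources used here. Gene identifiers matched GENCODE release M21 (GRCm38). Total counts ran from 22028507 to 32234146, and the lowest count of a member was 1028. Libraries were grouped by their labels, and no library repeated another.

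The expected counts were rounded. Genes passed edgeR's filterByExpr (minimum count 10, minimum total 15), libraries were scaled by TMM, and groups were compared by edgeR 4.0.16's quasi-likelihood F-test in R 4.3.3 with Benjamini-Hochberg adjustment over all genes tested and a threshold of 0.05. The parity comparisons used their own libraries and the others all 11. SEs were derived from the F statistic, and intervals are 95%. The members and lists were chosen with earlier results of these data known. Besides the 10 members, *Ins1*, *Ins2*, *Gcg*, *Sst*, *Ppy* and *Mki67*, genes were named for being among up to 3 per list and direction with the largest called change, or for their likeness to a member. *Foxo1*, *Glis3*, *Etv1* and other list genes, among them most marker genes that this rule picks, stand only in counts, and some list genes are not reported here. The lists were other islet regulators, beta cell output genes, and markers of alpha, delta and PP, acinar, duct, endothelial, immune and stromal cells and of proliferation. With S-961, of 5 duct markers 1 rose and 1 fell in each parity, of 8 endothelial markers 4 fell in virgin and 2 in multipara mice, of 8 immune markers 2 and 6 fell, of 7 stromal markers 1 fell in virgin and 2 rose in multipara mice, of 5 delta and PP markers 4 fell in virgin mice and 1 rose and 2 fell in multipara mice, of 16 acinar markers 15 rose in each, and 0 of 10 proliferation genes were called. Alpha cell markers, 8 in all, gave 5 falls in virgin mice and 3 rises and 1 fall in multipara mice.

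On simulated counts 200 genes were changed 4-fold. In the design of multipara against virgin with S-961, 182 were recovered with 16 false calls among 16448 genes. In that of S-961 against untreated in multipara mice, 171 were recovered with 7 false calls among 17529 genes. Recovery of smaller changes, such as those of the members, was not tested. In the measured counts of multipara against virgin with S-961, edgeR called 0 of 16784 genes. The genes not called included 10 proliferation genes with a median log2 difference of 3.60. Alternatives were DESeq2 1.42.0 size factors and Wald test, total counts with and without the insulin genes, other filters, libraries left out, a replicate block, other sets of libraries in the fit and an acinar covariate.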

Additional observations from a re-analysis of the deposited data

Results flagged for a closer look

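Among 47 genes that the naming rule could pick, 2 had 1 library of the multipara S-961 group far from the other 3, with a gap over 0.829 of the group's range, and chance gives about 1 in 20 groups such a gap. *Prox1* was at 42.2 CPM in multipara S-961 2 and the stromal gene *Col3a1* at 108 CPM in multipara S-961 3. None of the 10 members had such a gap.

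For several genes every multipara library was above every virgin library with S-961 and below every virgin library without it. The log2 differences with and without S-961 were 0.50 and -0.70 for *Gcg*, 0.85 and -0.79 for *Neurog3*, 0.55 and -0.64 for *Irx1* and 0.49 and -0.55 for *Irx2*. In edgeR's interaction test their adjusted p-values were 0.44, 0.41, 0.37 and 0.44, so the difference between these effects was not called for any of them.

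For others the S-961 libraries were all on opposite sides of the untreated ones in virgin and in multipara mice. The log2 fold changes in virgin and multipara mice were -0.37 and 1.55 for *Gc*, -0.53 and 0.49 for *Irx2* and -0.45 and 1.35 for *Col3a1*, and the interaction test gave adjusted p-values of 0.63, 0.44 and 0.56. No member changed in opposite directions without overlap.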

How the results depend on the processing

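The 10 members gave 0 calls for both parity comparisons and for their difference under every alternative run. For S-961 against untreated the called members kept their direction under every alternative. The count of members called in virgin mice was 3, and it was 5 with total counts, 5 with the fit on the libraries of the comparison alone, 0 with the acinar covariate and 2 to 3 with 1 library left out, where *Nkx6-1* lost its call without virgin untreated 2. In multipara mice it was 4, and it was 9 with total counts, 1 with the fit on its own libraries, where the adjusted p-values of *Mafa*, *Nkx6-1* and *Insm1* were 0.052, 0.053 and 0.082, 0 with the acinar covariate and 1 to 5 with 1 library left out. For S-961 against untreated, the share of all genes called is not given here for the own-library fits or with 1 library left out. Those counts are therefore not a result about the members alone. *Pdx1* was called lower in multipara mice with DESeq2 size factors, the DESeq2 Wald test, the stricter filter and without multipara S-961 3. The replicate numbers showed little sign of pairing the S-961 libraries (correlations of deviations of 0.056, 0.012 and 0.093). The untreated value of 0.28 cannot decide this, since with 2 libraries per group both pairs give the same number. The study used virgin littermates as controls, and which libraries came from littermates is not given in the sources used here. With the replicate block the counts were 3 in virgin and 3 in multipara mice and 0 in each of the other comparisons, and *Nkx6-1* in multipara mice was the call it removed. For all genes, multipara against virgin with S-961 gave 358 higher and 11 lower with the DESeq2 Wald test, 316 and 33 with the block, and 447 and 78 without multipara S-961 4. Multipara against virgin untreated gave 22 higher and 34 lower with the DESeq2 Wald test, 22 and 31 without multipara untreated 1, and 1485 and 253 without multipara untreated 2. The difference between the parity effects gave 59 higher and 20 lower with the DESeq2 Wald test and 45 and 34 with the block. Of 760 fold changes of single members recomputed, 648 kept their direction and side of the threshold, 16 lost their call, 11 gained one and 85 changed sign, 0 of them called as reported and 2 called under the alternative (*Pax6* and *Foxa2* in multipara mice with total counts). For multipara against virgin with S-961 the values of reversed sign were with the acinar covariate *Pdx1* -0.011, *Nkx6-1* 0.022, *Isl1* 0.00088, and with total counts *Nkx6-1* 0.068, *Isl1* 0.020, and with total counts without the insulin genes *Nkx6-1* 0.028, and with the stricter filter *Nkx6-1* 0.0088. For multipara against virgin untreated the values of reversed sign were with total counts *Nkx2-2* -0.045, *Foxa2* -0.049, *Insm1* -0.016, and with no filter *Nkx2-2* -0.0036, *Foxa2* -0.0051, and with the replicate block *Foxa2* -0.00060. For the difference between the parity effects the values of reversed sign were with the replicate block *Isl1* -0.23, and with total counts *Pax6* 0.12, *Foxa2* 0.13, and with total counts without the insulin genes *Pax6* 0.010, *Foxa2* 0.021, and with no filter *Pax6* 0.012, *Foxa2* 0.027, and with the stricter filter *Foxa2* 0.0060. For S-961 against untreated in virgin mice the values of reversed sign were with total counts *Pdx1* 0.24, *Nkx2-2* 0.40, *Pax6* 0.46, *Foxa2* 0.35, *Rfx6* 0.19, and with total counts without the insulin genes *Nkx2-2* 0.039, *Pax6* 0.096, and with the acinar covariate *Nkx2-2* 0.013, *Insm1* -0.22, and with DESeq2 size factors *Pax6* 0.014, and with the DESeq2 Wald test *Pax6* 0.014, and with no filter *Pax6* 0.014, and with the replicate block *Pax6* 0.032, and with own libraries only *Pax6* 0.015. For S-961 against untreated in multipara mice the values of reversed sign were with total counts *Pdx1* 0.19, *Pax6* 0.59, *Foxa2* 0.48, and with total counts without the insulin genes *Pax6* 0.11, *Foxa2* 0.0024, and with no filter *Pax6* 0.026, and with the acinar covariate *Rfx6* -0.61. With 1 library left out the ranges that crossed 0 were, for multipara against virgin with S-961, *Nkx6-1* -0.13 to 0.066, *Isl1* -0.22 to 0.031, *Pax6* -0.060 to 0.14, *Foxa2* -0.082 to 0.074, and for multipara against virgin untreated, *Nkx6-1* -0.055 to 0.34, *Nkx2-2* -0.14 to 0.13, *Neurod1* -0.034 to 0.35, *Isl1* -0.27 to 0.016, *Pax6* -0.092 to 0.21, *Foxa2* -0.18 to 0.16, *Insm1* -0.22 to 0.25, and for the difference between the parity effects, *Nkx6-1* -0.37 to 0.041, *Isl1* -0.12 to 0.22, *Pax6* -0.17 to 0.17, *Foxa2* -0.18 to 0.20, and for S-961 against untreated in virgin mice, *Pax6* -0.066 to 0.055, and for S-961 against untreated in multipara mice, *Nkx2-2* -0.061 to 0.25, *Pax6* -0.18 to 0.16, *Foxa2* -0.30 to 0.083. The cause of these moves was not tested. In total counts, a fall of abundant genes such as the insulin genes raises the share of every other gene, and some signs also changed with the insulin genes left out of the totals. The lowest count of a member was 1028.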
